A study of Mus musculus with 24 samples.

Results

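Primordial germ cell-like cells (PGCLCs) and epiblast stem cells (EpiSCs) are both cultured relatives of the epiblast, the tissue of the early embryo from which the body and the germ line arise. The comparison was made on unamplified Affymetrix expression arrays of the mouse and used 4 of the 24 arrays of the study, 2 of PGCLCs and 2 of EpiSCs, selected by labelled cell type and by the absence of PCR amplification. All cells were C57BL/6. The PGCLCs had been induced from epiblast-like cells (EpiLCs) on day 2, which came in turn from embryonic stem cells (ESCs) grown without feeders in 2i+LIF, whereas the EpiSCs originated from epiblast taken at embryonic day 5.75. Total RNA from RNeasy columns (Qiagen) was labelled with biotin by the one-cycle Affymetrix protocol. Another 4 arrays, 2 of PGCLCs and 2 of EpiSCs, carried cDNA amplified by 22 cycles of PCR from 5 ng of total RNA, equivalent to 500 cells, and served as a check of direction. Primordial germ cells (PGCs) of embryonic day 9.5 and epiblast, whose embryonic day is not given here, formed the corresponding pair of the embryo. Both were also amplified, with 2 arrays each.

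The inducing factors and the means of isolating the PGCLCs, the number of EpiSC lines, and the medium and any feeder layer under the EpiSCs are not stated in the labels. The labels call the replicates biological without naming separate cultures, so each p-value covers the variation among these arrays only, and that may be technical in part. Whether amplified and unamplified RNA shared a culture is not stated. In bulk RNA, fewer cells of a type and less RNA per cell cannot be told apart.

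Germ cells of the mouse are set aside from the epiblast soon after implantation, when BMP signals from neighbouring tissue induce the transcription factor genes Prdm1, Prdm14 and Tfap2c. These factors repress somatic genes, restore parts of the pluripotency programme and precede a genome-wide loss of DNA methylation, in whose course germline genes that methylation had silenced become active. The remaining epiblast cells enter the primitive streak and the germ layers under Nodal, FGF and WNT signals, and EpiSCs are held in culture at a primed stage close to that step.

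The arrays of a cell type were close to each other. Across the 14935 genes tested, the root mean square log2 difference between a PGCLC and an EpiSC array was 1.28 ± 0.01 (SD over 4 pairs), against 0.53 between the PGCLC replicates and 0.32 between the EpiSC replicates. The distance of either cell type from day 2 EpiLCs was similar, 1.11 ± 0.01 for PGCLCs and 1.14 ± 0.01 for EpiSCs (SD over 4 pairs each). To ESCs it was 1.16 ± 0.0083 for PGCLCs and 1.41 ± 0.0047 for EpiSCs (SD over 4 pairs each). In all these distances the pairs share arrays, so the SD is not a spread over independent replicates. The 5′ to 3′ signal ratio of the actin control probe sets lay between 0.792 and 0.874 on the 4 unamplified arrays. On the amplified arrays it was 0.0591 and 0.0633 in PGCLCs and 0.0996 and 0.131 in EpiSCs. The same ratio for Gapdh lay between 1.13 and 1.21 without amplification and was 0.25 and 0.433 in PGCLCs and 0.758 and 0.86 in EpiSCs with it. On amplified arrays both ratios were thus lower in PGCLCs.

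Of the 14935 genes tested, 3660 (24.5%) differed between PGCLCs and EpiSCs at a limma adjusted p under 0.05 and a log2 difference of at least 1, the rule for a call throughout. In PGCLCs 1138 genes (7.62%) were higher and 2522 (16.9%) lower. Intensities were taken as deposited, and the median gene then differed by -0.10 on the log2 scale. Centring the arrays on their medians moved that median to 0.08 and the split to 1523 higher and 2062 lower. Quantile normalization gave 1550 and 2027, so the excess of lower genes depended in part on the scale. Both groups of arrays were apart without overlap in 3659 of the 3660 called genes, where 31% of all genes tested lay apart in the higher and 42.2% in the lower direction. Every called gene named below is among those 3659. Same-numbered PGCLC and EpiSC arrays share a code in their descriptions, whose meaning the labels do not give, and within both codes the difference reached 1 on the log2 scale, in the direction of the call, in 3014 of the 3660 genes (82.3%). The rule for a call uses these same arrays, so that share describes the called genes and is no separate support for them.

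**Figure D1:**
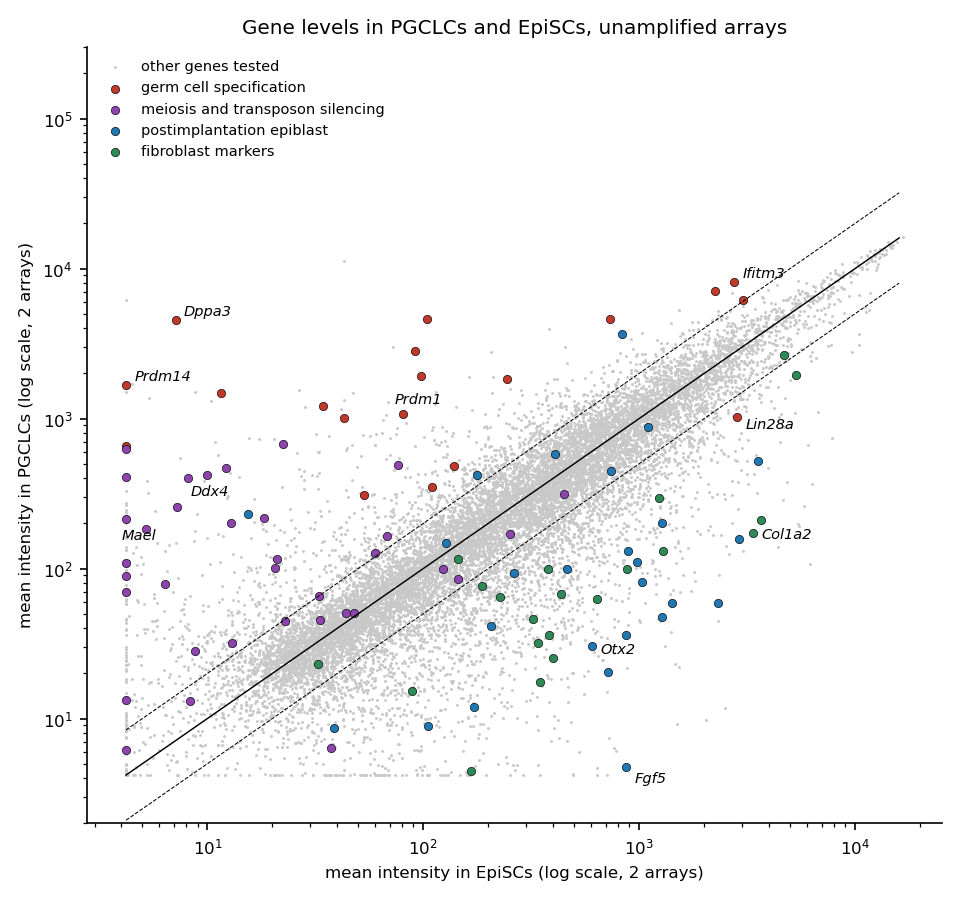
Mean intensity of each gene tested in EpiSCs (horizontal, log10 axis) against PGCLCs (vertical, log10 axis), 2 unamplified arrays each, with members of the germ cell, meiosis, postimplantation and fibroblast lists coloured, other genes in gray, values under 4.20 raised to it, a solid line of equal level and dashed lines at a 2-fold difference. Of the 14935 genes 1138 lie in the higher and 2522 in the lower class, and Dppa3 and Prdm14 lie far above the diagonal while Fgf5 and Col1a2 lie far below it.

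Genes of germ cell specification were the group with the largest share of called members. All 19 measured members of the list were called, 18 higher and 1 lower in PGCLCs, with a median log2 difference of 3.73 beside the -0.10 of all genes. Dppa3, which encodes a maternal and germ cell protein that shields DNA from demethylation in the zygote, read 4757 and 4276 in PGCLCs and 4.59 and 11.03 in EpiSCs. The limma adjusted p was 1.1e-09 (n = 2 arrays per group). Because both EpiSC arrays lay under 28.1, the intensity below which a gene was not counted as detected, the fold is given as a bound against that level, at least 161-fold higher in PGCLCs. The same is done below wherever a fold is given for a called gene with both arrays of a group under that level. Prdm14, a zinc finger regulator needed for germ cell specification, read 1591 and 1768 in PGCLCs and 2.48 and 2.74 in EpiSCs, at least 59.7-fold higher. Both EpiSC arrays were at the bottom of the scale and both PGCLC arrays far above it.

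Prdm1, the zinc finger repressor BLIMP1 that shuts down the somatic programme, read 923 and 1233 in PGCLCs and 74.3 and 86.6 in EpiSCs, a log2 difference of 3.73 ± 0.16 (± SE here and below, limma adjusted p = 1.0e-08). Tfap2c, the AP-2 gamma transcription factor acting with PRDM1, read 4719.8 and 4561 in PGCLCs and 719 and 745 in EpiSCs, a difference of 2.66 ± 0.11. Unlike Dppa3 and Prdm14, both genes were above the detection level in EpiSCs. Dnd1, whose product protects germ cell mRNAs from microRNAs, was higher by 5.13 ± 0.19, and Kit, the stem cell factor receptor of migrating germ cells, by 4.30 ± 0.13. The homeobox genes of the X-linked Rhox cluster were higher together, Rhox5 by 5.47 ± 0.05, Rhox9 by 4.96 ± 0.19 and Rhox6 by 2.92 ± 0.17. Alpl, the tissue-nonspecific alkaline phosphatase long used to stain germ cells, was higher by 4.56 ± 0.10.

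Other members differed less. Ifitm3, encoding the surface protein fragilis, read 8078 and 8149 in PGCLCs and 2759 and 2749 in EpiSCs, a difference of 1.56 ± 0.05. Sox2, a pluripotency factor that mouse germ cells take up again, differed by 1.03 ± 0.04. Lin28a, an RNA-binding protein that blocks maturation of let-7 microRNAs, was the 1 member lower in PGCLCs, at 951 and 1108 against 2807 and 2879 (-1.47 ± 0.08). Its other probe set differed by -0.67. On amplified arrays Lin28a differed by -1.33, not called. The labels of both cell types held against most of their markers. Prdm1, Prdm14, Dppa3 and Tfap2c were high in the PGCLC arrays, Fgf5, Otx2, Sox3 and Dnmt3b in the EpiSC arrays, and Pou5f1 was high in both. Nanog, the other PGCLC marker, and Nodal, the other EpiSC marker, differed by 0.35 and -0.74 and were not called. The other Sox3 probe set differed by -0.71.

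**Figure D2:**
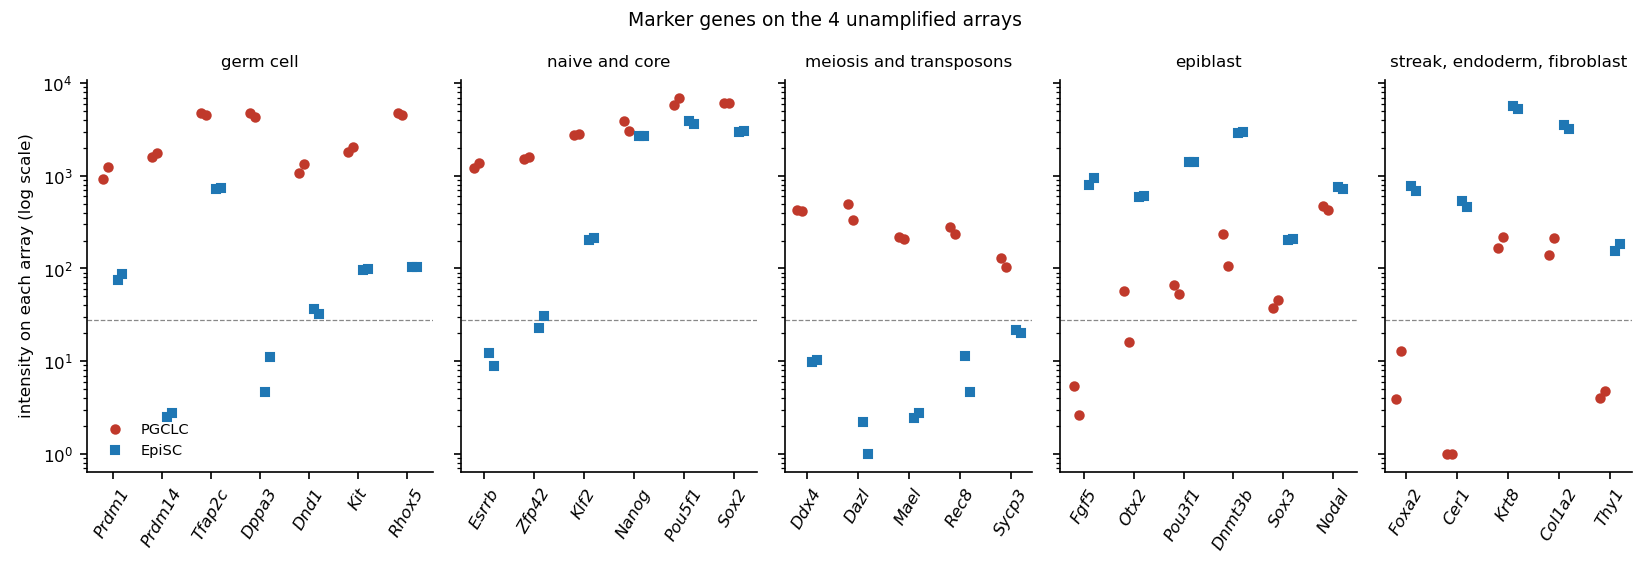
Intensity of named genes on each unamplified PGCLC and EpiSC array (log10 axis), 2 points per group, with the detection level of 28.1 dashed. The replicates of a group lie close together beside the gap between groups, with Dppa3 at 4757 and 4276 in PGCLCs and 4.59 and 11.03 in EpiSCs.

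Fibroblast markers were lower in PGCLCs. Of 21 members tested 18 were called lower and 0 higher, with a median of -2.81. Col1a2, a chain of type I collagen, read 139.6 and 214 in PGCLCs and 3510.3 and 3209.7 in EpiSCs, a log2 difference of -4.28 ± 0.40. Thy1, a surface glycoprotein of fibroblasts and neurons, read 3.97 and 4.80 in PGCLCs and 153 and 182 in EpiSCs, at least 5.94-fold lower in PGCLCs. S100a4, a calcium-binding protein of fibroblasts, was under the detection level on both PGCLC arrays and read 347 and 345 in EpiSCs, at least 12.3-fold lower in PGCLCs. PGCLC arrays were the low ones in all 3 genes. Col5a1 differed by -3.29 ± 0.16 and the gelatinase gene Mmp2 by -3.15 ± 0.12, while Sparc, a matrix glycoprotein that ESCs have as well, read 2951 and 2384 in PGCLCs and 4809.6 and 4601 in EpiSCs (-0.83 ± 0.08, not called). Other Col5a1 probe sets differed by -3.02 and -0.11. The summed intensity over all 22 fibroblast markers on the array was 6403 and 6162 in the PGCLC arrays and 24625 and 24577 in the EpiSC arrays, and no marker was at the table's lowest value of 1 on any of the 4 arrays. What part cells of this type have in any difference described here was not tested.

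Genes of the postimplantation epiblast made up the next group, with 19 of 26 lower and 3 higher in PGCLCs and a median of -2.76. Fgf5, a growth factor that marks the epiblast after implantation, read 5.46 and 2.63 in PGCLCs and 793 and 950.2 in EpiSCs, at least 30.9-fold lower in PGCLCs. Pim2, a serine/threonine kinase, read 54.9 and 63.6 in PGCLCs and 2295 and 2335 in EpiSCs (-5.29 ± 0.08). Otx2, a homeobox factor of anterior epiblast that restrains entry into the germ line, read 57.6 and 16.3 in PGCLCs and 597 and 608 in EpiSCs (-4.30 ± 0.40). The PGCLC replicates were further apart in Otx2 than the EpiSC replicates, yet both lay far below them.

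The zinc finger genes Zic2 and Zic5 were lower by -5.13 ± 0.57 and -4.60 ± 0.40, the WNT receptor Fzd2 by -4.75 ± 0.11 and the POU factor Pou3f1, also called Oct6, by -4.58 ± 0.09. Sox3 and Sox4 differed by -2.31 ± 0.13 and -2.77 ± 0.06. Other Sox4 probe sets that passed the intensity filter differed by -2.85, -2.80, -2.69, -2.18, -1.06 and -0.36. Dnmt3b, a de novo DNA methyltransferase, read 237 and 105 in PGCLCs and 2881 and 2946 in EpiSCs (-4.21 ± 0.26). Its relative Dnmt3a read 118 and 83.6 in PGCLCs and 449.6 and 482 in EpiSCs (-2.23 ± 0.13). A separate set of 3 members went the other way. The ETS factors Etv4 and Etv5, which FGF signals induce, were at least 8.22-fold higher and higher by 2.14 ± 0.09 in PGCLCs, and the bHLH factor Tcf15 was higher by 1.26 ± 0.14.

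Naive pluripotency genes, those of the preimplantation epiblast and of ESCs in 2i, were mostly higher in PGCLCs. Of 21 tested, 14 were called higher and 1 lower, with a median of 3.37. The list shares Dppa3, Prdm14, Tcl1 and Pecam1 with germ cell specification. Esrrb, an orphan nuclear receptor of the naive network, read 1229 and 1378 in PGCLCs and 12.2 and 8.79 in EpiSCs, at least 46.3-fold higher. Zfp42, the zinc finger gene Rex1, read 1529 and 1589 in PGCLCs and 23.03 and 30.6 in EpiSCs (5.87 ± 0.11). Nr5a2, a nuclear receptor that maintains Pou5f1 transcription, read 553 and 595 in PGCLCs and 8.40 and 14.8 in EpiSCs, at least 20.4-fold higher. EpiSC arrays were under or near the detection level in all 3.

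Klf2, a Krüppel-like factor, was higher by 3.75 ± 0.09 and Tfcp2l1 by 3.52 ± 0.08, whereas the related Klf4 read 214 and 106 in PGCLCs and 111 and 117 in EpiSCs (0.41 ± 0.24, not called). In ESCs Klf4 read 4899.8 and 4838. Nanog, the homeobox factor of the pluripotency core, read 3922 and 3041 in PGCLCs and 2711 and 2698 in EpiSCs (0.35 ± 0.10, not called). The 1 member called lower was Fgf4, an autocrine growth factor of pluripotent cells, at 50.3 and 18.6 against 78.00 and 78.6 (-1.36 ± 0.33). Leaving out PGCLC replicate 2 brought that difference to -0.64 and ended the call, as did averaging its probe sets (-0.88) and fitting the PGCLC and EpiSC arrays alone.

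Among genes of the mesenchyme and extracellular matrix, 15 of 21 were lower in PGCLCs and 0 higher, with a median of -1.47. Tnc, the matrix glycoprotein tenascin C, read 31.01 and 19.3 in PGCLCs and 660.2 and 705 in EpiSCs (-4.80 ± 0.28). The basement membrane collagens Col4a1 and Col4a2 were lower by -2.58 ± 0.22 and -2.55 ± 0.16, the laminin receptor subunit Itga6 by -2.86 ± 0.26 and the intermediate filament gene Vim by -1.77 ± 0.06. Fn1, encoding fibronectin, read 2547 and 2152 in PGCLCs and 3183 and 3278 in EpiSCs (-0.46 ± 0.09, not called). The other Fn1 probe set went the opposite way, at 274 and 274 in PGCLCs and 114 and 121 in EpiSCs (1.22). The summed fibroblast markers given above were lower in PGCLCs as well, and their part in these decreases was not tested.

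Genes of meiosis and transposon silencing were higher in PGCLCs in 23 of 35 members tested and lower in 1, with a median of 2.29, or 1.32 with all values raised to the detection level. The lower gene, Piwil4 of the piRNA pathway (at least 1.34-fold lower), was not called once low values were raised to the 40th percentile (-0.53). Rnf17, a tudor domain protein of germ granules, read 768 and 507 in PGCLCs and 1.94 and 1 in EpiSCs, at least 22.2-fold higher. Dazl, an RNA-binding translational regulator of germ cells, read 497 and 332 in PGCLCs and 2.22 and 1 in EpiSCs, at least 14.5-fold higher. Mael, a piRNA pathway component, read 216 and 210.4 in PGCLCs and 2.44 and 2.78 in EpiSCs, at least 7.60-fold higher. Ddx4, the germ cell RNA helicase mouse vasa homologue, read 426 and 415 in PGCLCs and 9.75 and 10.2 in EpiSCs, at least 14.98-fold higher. In EpiSCs all 4 genes stayed under the detection level on both arrays.

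The meiotic cohesin genes Rec8, Smc1b and Stag3 were at least 9.13-fold higher, at least 2.49-fold and at least 7.72-fold respectively. Hormad1, a protein of meiotic chromosome axes, was at least 3.89-fold higher, and Slc25a31, the ADP/ATP carrier of the germ line, at least 3.20-fold. Sycp3, a protein of the lateral elements of the synaptonemal complex, read 129.5 and 103 in PGCLCs and 21.4 and 20.4 in EpiSCs, at least 4.12-fold higher. Of the piRNA pathway, Piwil2 was at least 7.21-fold higher and Tdrd12 at least 14.3-fold. EpiSC arrays were under the detection level in all of these genes. Stra8, the gene that gates entry into meiosis, read 62.6 and 31.7 in PGCLCs and 20.95 and 25.2 in EpiSCs (not called, but called with the arrays centred on their medians). Sycp1 of the synaptonemal complex read 10.4 and 16.6 in PGCLCs and 7.36 and 9.39 in EpiSCs (not called, and under the detection level on all 4 arrays). The higher level was not particular to the induced cells, since day 2 EpiLCs read 873 and 884 for Mael, 369 and 394 for Ddx4 and 640.0 and 669 for Hormad1.

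Promoters of germline genes of this kind are known for letters bound by the repressor E2F6 (TCCCGC) and for the E-box of MGA and MAX (CACGTG). Windows from 250 bases before to 50 bases after the start, from RefSeq on GRCm38.p6, were searched on both strands for these 2 motifs, of which CACGTG is its own reverse complement. Among the 21 called higher list members with such a window, 13 (61.9%) held TCCCGC, 9 (42.9%) CACGTG and 6 (28.6%) both. Of the 10 members tested but not called, 3 (30%) held the first, 4 (40%) the second and 2 (20%) both. The shares were 22.05%, 8.09% and 2.32% over all 27025 genes with a window and 36.3%, 10.97% and 3.99% over the 11956 of them tested here. The windows of Ddx4 (chr13:112652261-112652560, minus strand), Mael (chr1:166238695-166238994, minus strand) and Slc25a31 (chr3:40708621-40708920, plus strand) hold both motifs, and that of Dazl (chr17:50293571-50293870, minus strand) holds neither, although Dazl was called higher as well. These windows are printed 5′ to 3′ along the gene, with the motifs, or GCGGGA, the reverse complement of the first, in capitals, and no 2 matches overlap in them.
Ddx4: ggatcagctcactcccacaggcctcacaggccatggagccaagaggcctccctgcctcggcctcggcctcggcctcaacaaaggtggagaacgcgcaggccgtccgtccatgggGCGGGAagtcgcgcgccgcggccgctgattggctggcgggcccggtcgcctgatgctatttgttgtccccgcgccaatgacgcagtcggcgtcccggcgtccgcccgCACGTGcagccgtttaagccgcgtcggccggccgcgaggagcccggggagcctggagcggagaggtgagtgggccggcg
Mael: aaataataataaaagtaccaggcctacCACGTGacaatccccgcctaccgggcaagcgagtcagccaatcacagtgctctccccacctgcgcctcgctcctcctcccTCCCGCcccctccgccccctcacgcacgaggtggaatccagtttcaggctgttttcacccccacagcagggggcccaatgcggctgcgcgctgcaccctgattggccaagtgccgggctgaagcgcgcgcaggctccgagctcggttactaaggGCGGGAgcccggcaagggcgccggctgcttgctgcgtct
Slc25a31: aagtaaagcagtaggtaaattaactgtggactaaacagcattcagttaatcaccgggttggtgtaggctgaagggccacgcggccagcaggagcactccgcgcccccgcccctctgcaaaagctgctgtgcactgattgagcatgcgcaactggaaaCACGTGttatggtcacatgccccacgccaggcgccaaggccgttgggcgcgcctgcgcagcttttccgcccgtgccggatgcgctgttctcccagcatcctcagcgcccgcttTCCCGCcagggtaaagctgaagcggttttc
Dazl: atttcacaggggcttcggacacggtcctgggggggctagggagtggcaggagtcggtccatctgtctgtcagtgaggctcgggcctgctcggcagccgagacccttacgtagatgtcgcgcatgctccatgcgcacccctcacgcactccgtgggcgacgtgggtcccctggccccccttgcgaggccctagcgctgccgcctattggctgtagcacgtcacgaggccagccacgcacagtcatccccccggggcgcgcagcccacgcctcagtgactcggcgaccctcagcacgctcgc
A match is a description of the letters and not of a bound site.

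Primitive streak and endoderm genes were called lower in 13 of 27 members and higher in 5, with a median of -0.68, or -0.37 with all values raised to the detection level. Foxa1, a pioneer factor of endoderm, read 1 and 1 in PGCLCs, the lowest value of the table, and 701 and 722 in EpiSCs, at least 25.3-fold lower in PGCLCs. Foxa2, its relative of anterior streak and node, read 3.93 and 12.9 in PGCLCs and 772 and 679 in EpiSCs, at least 25.8-fold lower. Cer1, a secreted antagonist of Nodal, BMP and WNT, read 1 and 1 in PGCLCs and 530.2 and 463 in EpiSCs, at least 17.6-fold lower. Fgf8, the growth factor of the streak, read 1 and 1 in PGCLCs and 658 and 624 in EpiSCs, at least 22.8-fold lower. All 4 genes were above the detection level on both EpiSC arrays and below it on both PGCLC arrays.

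The organizer gene Gsc and the endoderm factor gene Sox17 were lower in PGCLCs, at least 2.27-fold for Gsc and at least 3.43-fold for Sox17. The 5 higher genes included posterior factors. Cdx2, a caudal homeobox gene, read 168 and 873 in PGCLCs and 11.8 and 7.88 in EpiSCs, at least 13.6-fold higher, with the PGCLC replicates far apart, and Evx1 read 74.1 and 65.9 in PGCLCs and 2.98 and 11.6 in EpiSCs, at least 2.49-fold higher. On amplified arrays Cdx2 differed by 0.92, not called, and by 2.33 without amplified EpiSC replicate 1. Evx1 was called higher on amplified arrays as well (2.04). Kdr, a VEGF receptor of mesoderm, was higher by 1.57 ± 0.22. Gata4, Gata6 and Hand1 were not called, with differences of 0.31 ± 0.24, 0.08 ± 0.25 and -0.28 ± 0.20. Other probe sets of Gata6 differed by 1.20 and 0.63.

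Trophoblast markers were lower in 6 of 12 and higher in 1, with a median of -0.96, or -0.27 with all values raised to the detection level, and the largest decreases were those of keratins. Krt8, a keratin of simple epithelia, read 166 and 219.9 in PGCLCs and 5712 and 5265 in EpiSCs (-4.84 ± 0.11). Its partner Krt18 read 349 and 388 in PGCLCs and 6397 and 6246 in EpiSCs (-4.10 ± 0.09). Krt19 read 67.6 and 29.6 in PGCLCs and 2403 and 2247 in EpiSCs (-5.70 ± 0.30). Plac1, a placental gene, read 134 and 153 in PGCLCs and 133 and 132 in EpiSCs (0.11 ± 0.55, not called), and Tpbpa, of the spongiotrophoblast, read 15.8 and 30.9 in PGCLCs and 13.6 and 25.7 in EpiSCs (not called). The summed intensity of the 14 trophoblast markers on the array was 1448 and 2215 in PGCLCs and 15752 and 14942 in EpiSCs, and 1 marker stood at the lowest value on 1 PGCLC array. Nearly all of the EpiSC sum came from the 4 keratins, at 14949 and 14198, against 669 and 725 in PGCLCs. The other 10 markers summed to 779 and 1490.0 in PGCLCs and 803 and 744 in EpiSCs. The part of such cells in the result was not tested.

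In the FGF and ERK pathway, 11 of 26 genes were lower in PGCLCs and 4 higher, with a median of -0.50. The ligand genes Fgf5 and Fgf8 were among the lower ones. Among targets, Ccnd1, encoding cyclin D1, read 118 and 68.8 in PGCLCs and 2262 and 2447 in EpiSCs (-4.71 ± 0.18), and the AP-1 gene Jun was lower by -1.61 ± 0.20. Not all targets went this way, since Etv4 and Etv5 were higher and the phosphatase gene Dusp6, a feedback inhibitor of ERK, read 1036 and 1071 in PGCLCs and 957 and 1010.0 in EpiSCs (0.10 ± 0.08, not called). On amplified arrays Dusp6 differed by -3.06, not called, though it was called with the PGCLC and EpiSC arrays fitted alone. Etv4 and Etv5 were higher on amplified arrays too, by 2.74 and 2.19. Of the receptors, Fgfr1 read 432 and 672 in PGCLCs and 715 and 749 in EpiSCs (-0.44 ± 0.16, not called).

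Imprinted genes, which are expressed from 1 parental allele, split into 11 lower and 4 higher of 29, with a median of -0.25. Grb10, a growth-restraining adaptor protein, read 83.6 and 139.6 in PGCLCs and 6375 and 5963 in EpiSCs (-5.83 ± 0.17). Nnat, Cdkn1c and Igf2 were lower by -3.48 ± 0.20, -2.97 ± 0.27 and -2.19 ± 0.28. Dlk1, Magel2 and the amino acid transporter gene Slc38a4 were higher by 2.45 ± 0.33, 2.04 ± 0.35 and 1.71 ± 0.07. Mest, an imprinted gene of the mesoderm, read 1145 and 1207 in PGCLCs and 1224 and 1207 in EpiSCs (-0.05 ± 0.06, not called). Expression levels do not show from which allele the RNA came.

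Core pluripotency genes were called in both directions, 5 higher and 2 lower of 14, with a median of 0.60. Pou5f1, the POU factor Oct4 that all these cells need, read 5861 and 6953 in PGCLCs and 3875 and 3602 in EpiSCs (0.77 ± 0.07, not called). The members with large differences were the developmental pluripotency-associated genes. Dppa5a, encoding a KH domain protein, read 11516 and 10938 in PGCLCs and 44.1 and 41.6 in EpiSCs (8.03 ± 0.05). Dppa2 was at least 48.5-fold higher, and its partner Dppa4 read 2667 and 3397 in PGCLCs and 69.8 and 74.9 in EpiSCs (5.38 ± 0.10).

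Glycolysis and lactate genes were lower in 9 of 22 members and higher in 2, with a median of -0.75. Slc16a3, the lactate exporter MCT4, read 300.4 and 99.8 in PGCLCs and 1276 and 1108 in EpiSCs (-2.78 ± 0.36), and Slc2a1, the glucose transporter GLUT1, read 3298 and 2329.7 in PGCLCs and 9747 and 9604 in EpiSCs (-1.80 ± 0.13). The higher members were the hexokinase gene Hk1 (1.75 ± 0.11) and the phosphofructokinase gene Pfkp (2.34 ± 0.24). Ldha, the muscle-type lactate dehydrogenase, read 6763 and 4121 in PGCLCs and 11983 and 11344 in EpiSCs (-1.14 ± 0.16), a call lost at -0.79 without PGCLC replicate 2 and at -0.97 with the arrays centred on their medians. Gapdh read 11348 and 9228 in PGCLCs and 12785 and 12394 in EpiSCs (-0.30 ± 0.08, not called).

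Of 12 early neural genes 6 were lower in PGCLCs and 0 higher, with a median of -1.18, or -0.88 with all values raised to the detection level. Sox1, the earliest neural Sox gene, read 3.60 and 4.28 in PGCLCs and 502 and 490.2 in EpiSCs, at least 17.7-fold lower, and its other probe set was under the detection level on all 4 arrays. Fabp7, a fatty acid-binding protein of neural progenitors, read 20.8 and 16.6 in PGCLCs and 374 and 379 in EpiSCs, at least 13.4-fold lower. Pax6 differed by -0.53 ± 0.27, not called. Another of its probe sets went the other way, at 40.7 and 39.0 in PGCLCs and 7.01 and 7.70 in EpiSCs. Both EpiSC values of that probe set were under the detection level. The 15 early neural markers on the array summed to 748 and 755 in PGCLCs and to 2755 and 2774 in EpiSCs, with Neurog2 at the lowest value of 1 on both EpiSC arrays and Lhx5 on 1 of them. The part of such cells was not tested.

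In the BMP pathway 6 of 23 genes were higher and 5 lower, with a median of 0.04. The higher genes included targets and feedback inhibitors. Gata2, a zinc finger target of BMP, read 624 and 1018 in PGCLCs and 66.1 and 62.6 in EpiSCs (3.63 ± 0.33), the homeobox target Msx2 read 513 and 891 in PGCLCs and 123 and 106 in EpiSCs (2.56 ± 0.30), and the inhibitory Smad gene Smad6 read 413 and 437 in PGCLCs and 105 and 98.9 in EpiSCs (2.06 ± 0.15). The ligand gene Bmp2 was at least 12.6-fold lower in PGCLCs. Id3, an immediate target, read 1179.6 and 1659 in PGCLCs and 842 and 874 in EpiSCs (0.71 ± 0.15, not called).

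Epithelial junction and keratin genes were lower in 6 of 19 and higher in 3, with a median of -0.59. Apart from the keratins, the tight junction gene Ocln was at least 3.15-fold lower in PGCLCs and the splicing regulator Esrp1 of epithelia higher by 1.70 ± 0.10. Cdh1, the E-cadherin gene, read 1748 and 1793 in PGCLCs and 2654 and 2665 in EpiSCs (-0.59 ± 0.04, not called). Among 28 genes of the WNT pathway 10 were lower and 3 higher, with a median of -0.28. Sp5, a direct target of beta-catenin, was at least 3.75-fold lower and the secreted antagonist gene Sfrp1 lower by -3.97 ± 0.10. Other Sfrp1 probe sets differed by -4.76, -1.91, -1.01 and -0.97. Ctnnb1, encoding beta-catenin, read 7100.5 and 6746 in PGCLCs and 7863 and 7673 in EpiSCs (-0.17 ± 0.05, not called).

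Stress and p53 target genes were lower in 8 of 18 and higher in 0, with a median of -0.40. Atf3, a stress-induced bZIP factor, read 19.4 and 16.98 in PGCLCs, both under the detection level, and 173 and 176 in EpiSCs. The p53 targets Ccng1 and Cdkn1a were lower by -1.77 ± 0.07 and -1.73 ± 0.16. Other Ccng1 probe sets differed by -1.6 and -0.72. In the Nodal and activin pathway 6 of 16 were lower and 1 higher, with a median of -0.60. The activin-binding Fst was at least 27.9-fold lower, the feedback antagonist Lefty1 read 901 and 852 in PGCLCs and 4837 and 4527 in EpiSCs (-2.42 ± 0.07), and the convertase gene Pcsk6 was the higher one (1.98 ± 0.25). Nodal itself read 470.1 and 423 in PGCLCs and 766 and 722 in EpiSCs (-0.74 ± 0.07, not called). Visceral endoderm markers gave 2 higher and 3 lower of 12, with summed intensities of 769 and 828 in PGCLCs and 960 and 994 in EpiSCs. Rbp4, a retinol carrier, was at least 8.33-fold lower and Amn, a receptor subunit of absorptive epithelium, at least 6.06-fold higher.

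Cell cycle genes were lower in 9 of 25 and higher in 1, with a median of -0.60. The inhibitor gene Cdkn2b read 19.6 and 21.9 in PGCLCs and 571 and 586 in EpiSCs, at least 20.6-fold lower. Cdk6, a kinase of the G1 phase, was lower by -3.04 ± 0.31 and Plk1, a mitotic kinase, by -1.44 ± 0.06. Mki67, a marker of proliferation, read 2391 and 1811 in PGCLCs and 2277 and 2365 in EpiSCs (-0.16 ± 0.13, not called).

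For DNA methylation and its removal, 4 of 23 genes were higher and 5 lower in PGCLCs, with a median of 0.37. Besides the de novo enzymes Dnmt3a and Dnmt3b, Uhrf1, which brings DNMT1 to replicating DNA, read 609 and 464 in PGCLCs and 2131 and 2155 in EpiSCs (-2.01 ± 0.11). Dnmt1, the maintenance enzyme, read 2873 and 2789 in PGCLCs and 1877 and 1941 in EpiSCs (0.57 ± 0.06, not called). Tet1, a 5-methylcytosine dioxygenase, was higher by 1.66 ± 0.14 and the uracil glycosylase gene Ung by 2.08 ± 0.05. Tet3 read 92.3 and 146 in PGCLCs and 107 and 134 in EpiSCs (-0.04 ± 0.20, not called).

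Blood and endothelial markers gave 3 higher and 2 lower of 13, with sums of 594 and 642 in PGCLCs and 504 and 588 in EpiSCs, and Hba-a1 stood at 1 on both EpiSC arrays. In the LIF and JAK-STAT pathway 3 of 12 were higher and 1 lower, including the kinase gene Pim1 (1.44 ± 0.06) against Pim2. Hox genes gave 1 higher and 2 lower of 15. Histone methylation genes were called in 6 of 32 members (18.8%), 5 of them lower. Ezh2, the H3K27 methyltransferase of Polycomb complex 2, read 1905 and 2043 in PGCLCs and 1933 and 2099.9 in EpiSCs (-0.03 ± 0.06, not called). Sex-linked genes gave 0 higher and 1 lower of 8. Hox, histone methylation and sex-linked genes were the lists with a share called below the 24.5% of all genes.

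**Figure D3:**
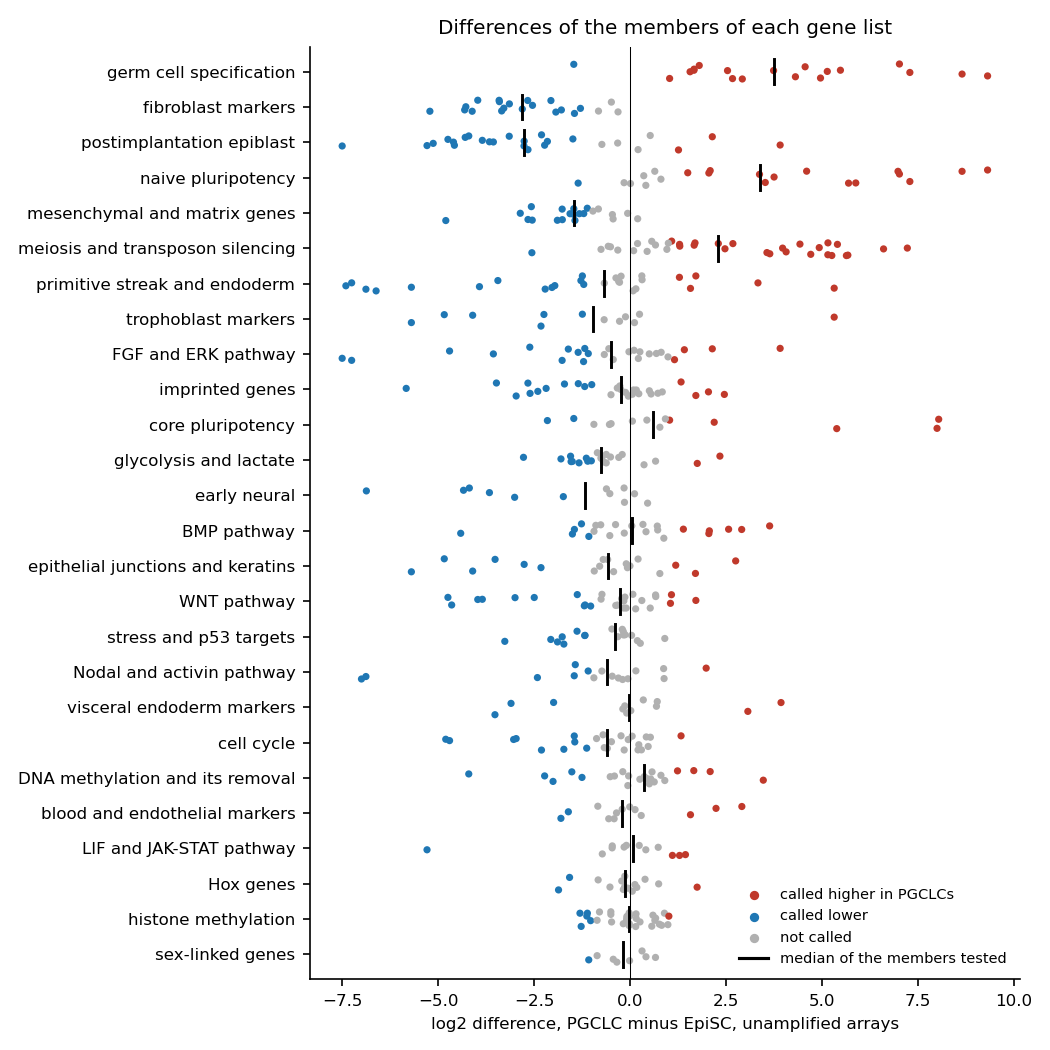
Log2 difference, PGCLC minus EpiSC on unamplified arrays, of each tested member of the 26 gene lists, with the median of each list marked and called genes coloured; differences of genes under the detection level in a group are fitted values of no measured size. Germ cell specification has its median at 3.73 and fibroblast markers theirs at -2.81, beside -0.10 for all genes.

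By fitted log2 difference, the 15 largest increases with the same sign on amplified arrays, provisional gene names aside, included 6 genes of none of these lists. Where a group was under the detection level, that rank rests on a fitted value of no measured size. Rps4l, a ribosomal protein S4-like gene, read 7171 and 5345 in PGCLCs and the lowest value of 1 on both EpiSC arrays, at least 220.4-fold higher. ESCs, day 2 EpiLCs, epiblast and E9.5 PGCs all had it, with day 2 EpiLCs at 7157 and 6636 and epiblast at 5999 and 5068. Calcoco2, an autophagy receptor, was at least 60.9-fold higher, and Morc1, a silencer of transposons in germ cells, at least 53.2-fold higher. Rbmxl2 was at least 11.8-fold higher, the organic anion transporter gene Slco4c1 at least 13.6-fold and Fmr1nb at least 19.5-fold.

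Among the 15 largest decreases, ranked in the same way, were 8 genes of none of the lists. Apela, a peptide ligand of the apelin receptor, read 20.2 and 6.80 in PGCLCs and 2482 and 2495 in EpiSCs, at least 88.6-fold lower. Car3, a carbonic anhydrase, read 7.58 and 12.7 in PGCLCs and 2083 and 2004 in EpiSCs, at least 72.7-fold lower. Acta1, skeletal muscle actin, read 20.4 and 1 in PGCLCs and 1470.3 and 1518 in EpiSCs, at least 53.2-fold lower. The EpiSC replicates differed little in these 3 genes, and the PGCLC arrays were all under the detection level. Cyp26a1, which degrades retinoic acid, was at least 27.3-fold lower, the hedgehog effector Gli2 at least 18.8-fold lower and the interferon-induced GTPase gene Gbp2 at least 54.7-fold lower. Ltb, encoding lymphotoxin beta, was at least 22.8-fold lower and Rnase4 at least 12.4-fold lower.

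Day 2 EpiLCs, the cells from which PGCLCs were induced, were set beside both cell types. Of the 1138 genes higher in PGCLCs, day 2 EpiLCs were nearer to PGCLCs on the log2 scale in 482 (42.4%) and nearer to EpiSCs in 656 (57.6%). Among the 2522 lower genes the split was 1263 to 1259. Gene groups departed from this in both directions. For germ cell specification, day 2 EpiLCs were nearer to EpiSCs in 16 of the 18 higher genes, with Prdm14 at 5.88 and 7.77 and Kit at 112 and 143. For meiosis and transposon silencing they were nearer to PGCLCs in 23 of 23. Naive genes lay between, with 4 of 14 nearer to PGCLCs.

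Among genes lower in PGCLCs, those of the postimplantation epiblast were nearer to EpiSCs in 17 of 19, as Pou3f1 at 3915 and 3637 and Dnmt3b at 9866 and 9442 show. Primitive streak and endoderm genes were nearer to PGCLCs in 13 of 13, fibroblast markers in 16 of 18 and matrix genes in 14 of 15, as with Foxa1 at 1 and 4.17 and Col1a2 at 48.7 and 30.1 in day 2 EpiLCs. The day 2 values enter no test here.

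**Figure D4:**
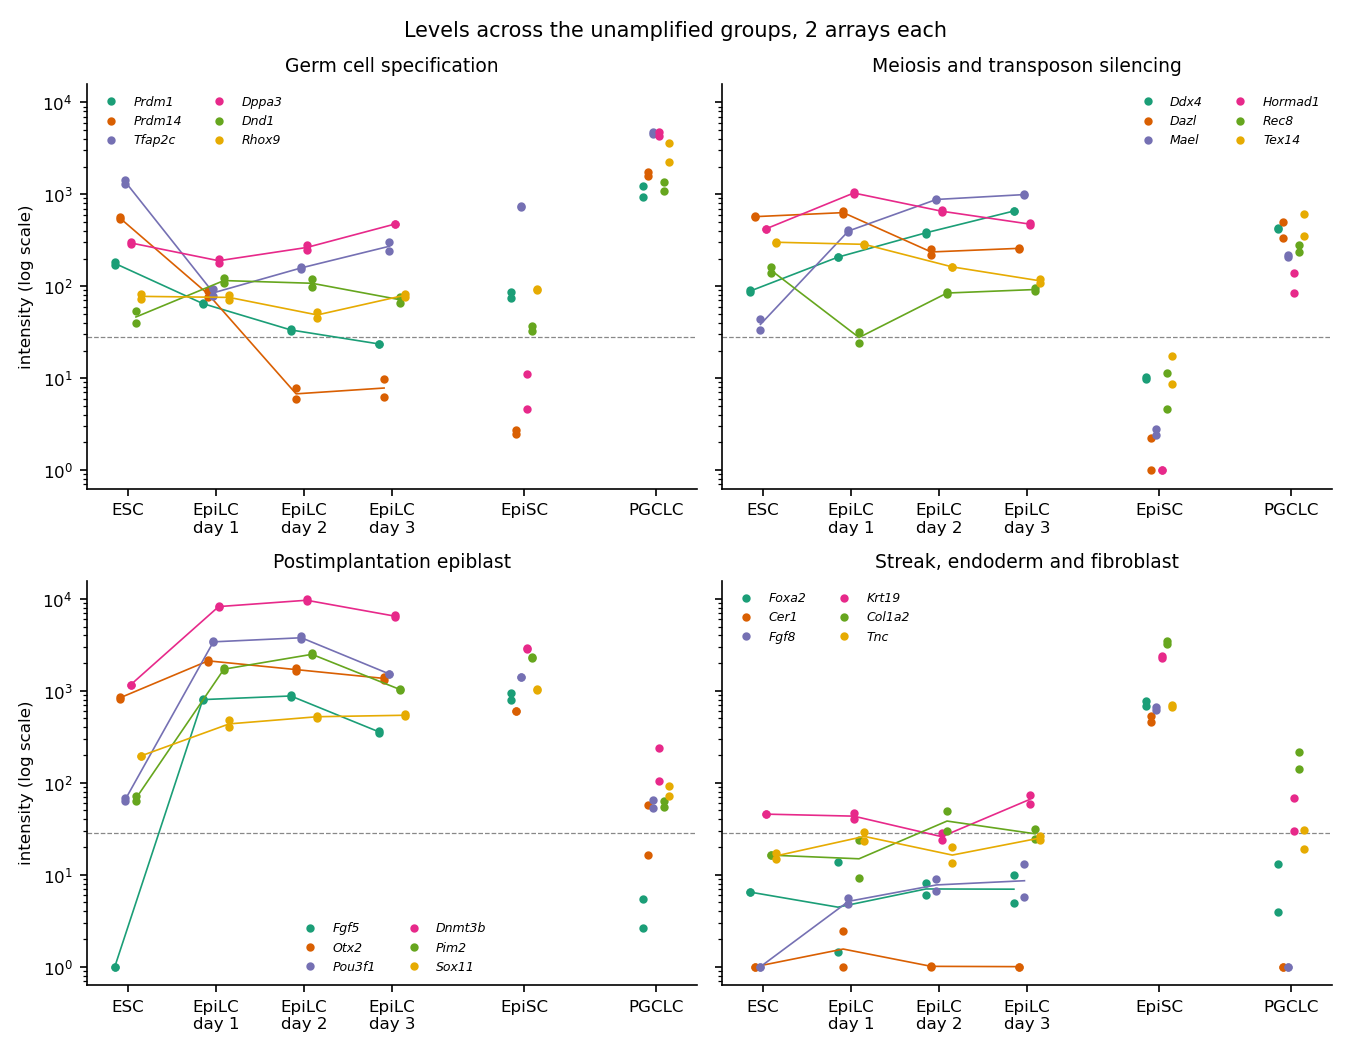
Intensity (log10 axis) of selected genes on the unamplified arrays of ESCs, EpiLCs of days 1, 2 and 3, EpiSCs and PGCLCs, 2 points per group, with lines joining the means from ESCs to day 3 EpiLCs and a dashed line at the detection level of 28.1. Mael is high in day 2 EpiLCs and PGCLCs, Prdm14 is low in day 2 EpiLCs and EpiSCs, and Cer1 is near the lowest values outside EpiSCs.

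On amplified arrays 2517 of 15609 genes (16.1%) were called, 890 higher (5.7%) and 1627 lower (10.4%) in PGCLCs. Of the 3526 genes called on unamplified arrays and tested on both kinds, 3399 (96.4%) had the same sign there, 1954 (55.4%) were also called in that direction and 2 were called in the opposite one. Those 2 genes, Casp4 (-1.15 without and 1.56 with amplification) and the ligand gene Bmp4 (-1.08 ± 0.35 without and 1.11 ± 0.29 with it), were chosen for naming after their values were seen. For Bmp4 the call without amplification was lost without PGCLC replicate 2 (-0.39) or either EpiSC replicate (-1.11 and -1.05), and on centring the arrays (-0.90) or quantile normalization (-0.85). The call with amplification was lost without PGCLC replicate 1 (1.22) or 2 (0.998) or EpiSC replicate 1 (0.88). For Casp4 the unamplified call was lost without PGCLC replicate 2 (-0.48) or EpiSC replicate 1 (-1.15) or 2 (-1.16), on centring the arrays (-0.98), on quantile normalization (-1.02) and on raising low values (-0.58), and the amplified call without PGCLC replicate 1 (1.58) or 2 (1.54) or EpiSC replicate 2 (1.03). Each of these calls was also lost when the PGCLC and EpiSC arrays were fitted alone. Without the filter on low intensity the amplified Casp4 call was lost too. Over all 14554 genes tested on both, 75.6% had the same sign, and the log2 differences correlated with r = 0.86 across genes, which are not independent. Germ cell specification had the same sign in 17 of 17 higher genes, 15 of them called. The postimplantation epiblast list had 19 of 19 lower genes with the same sign and 18 called. Fibroblast markers gave 18 and 15 of 18, and meiosis and transposon silencing 23 and 20 of 23.

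Matrix genes were an exception in size, since 14 of 15 kept the sign but only 3 were called on amplified arrays. Col4a1 differed by -2.58 ± 0.22 without and -0.88 ± 0.48 with amplification. Stress and p53 targets kept the sign in 5 of 8, with Cdkn1a at 0.02 ± 0.68 on amplified arrays. The control ratios given above were lower in PGCLCs on these arrays, and their part in the differences was not tested. The amplified EpiSC replicates were less alike than the unamplified ones, with a root mean square log2 difference of 0.97, beside 0.61 between amplified PGCLC replicates. Leaving out 1 amplified array moved the count of calls to 1566 without PGCLC replicate 1 and 1629 without PGCLC replicate 2. A direct test of whether the difference depended on amplification called 123 of 14554 genes (0.845%). That count ranged from 29 without unamplified EpiSC replicate 2 to 1892 without amplified EpiSC replicate 1, and only the omission of unamplified PGCLC replicate 2 (137) left it within 1.5 times of 123. It was 70 without unamplified PGCLC replicate 1, 33 without unamplified EpiSC replicate 1, 50 and 54 without amplified PGCLC replicates 1 and 2, and 379 without amplified EpiSC replicate 2. In a limma fit of the PGCLC and EpiSC arrays alone 0 genes passed, with 898 at an unadjusted p under 0.05. Fitting the replicate number as a block gave 355. In 38 of the 123 genes a group was under the detection level on at least 1 kind of array.

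**Figure D5:**
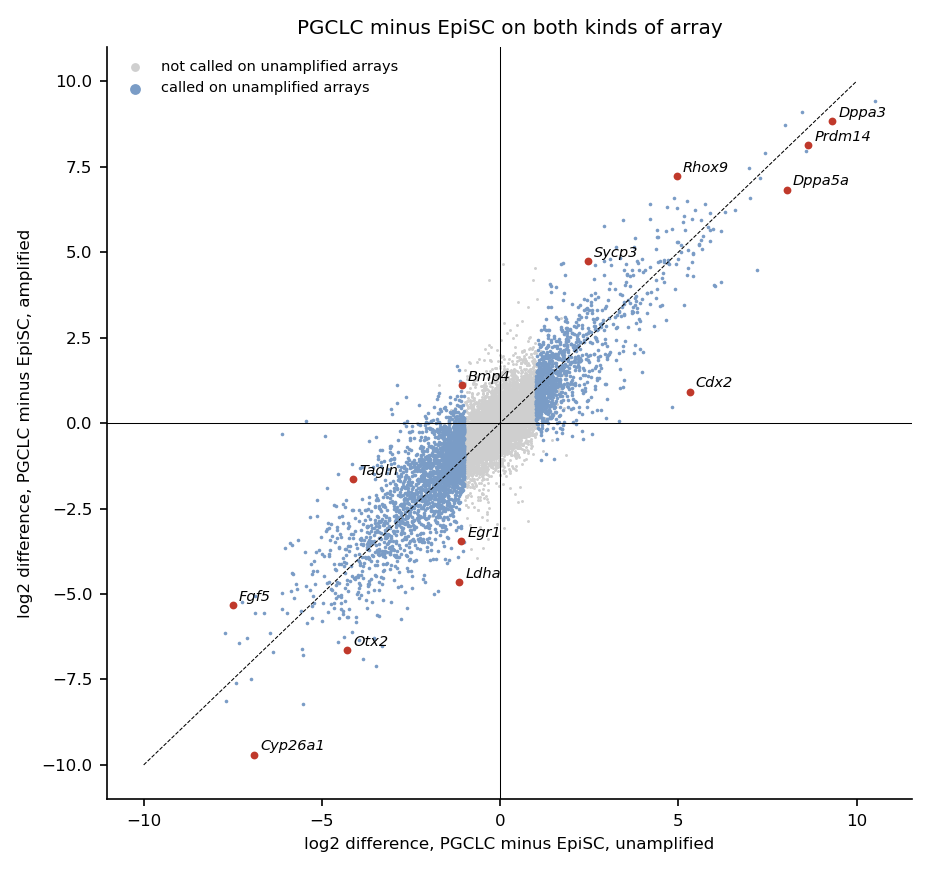
Log2 difference, PGCLC minus EpiSC, on unamplified arrays (horizontal) against amplified arrays (vertical) for the 14554 genes tested on both, with genes called on unamplified arrays in blue and named genes in red. Of the 3526 called genes 3399 (96.4%) lie in the 2 quadrants of equal sign.

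In the embryo, E9.5 PGCs were compared with epiblast on amplified arrays, where 6.11% of genes were called higher and 4.36% lower. Of the 3526 genes, 2507 (71.1%) had the same sign in that pair as in culture, where 61.7% of all genes did, and 752 were called in the same and 162 in the opposite direction. Germ cell specification followed in 17 of 17 higher genes, 16 called, with Dppa3 at 7191 and 9022 in PGCs and 182 and 141 in epiblast. The postimplantation list followed in 18 of 19 lower genes, 16 called, with Fgf5 at 52.04 and 57.1 in PGCs and 824 and 872 in epiblast. Naive genes followed in 14 of 14, 11 called.

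Other groups did not follow the embryo in this way. Of the 23 higher genes of meiosis and transposon silencing, 13 had the same sign and 6 were called so, and Mael read 75.2 and 53.6 in PGCs and 212 and 274 in epiblast. Fibroblast markers were lower in PGCLCs than in EpiSCs, yet only 4 of 18 had that sign in PGCs against epiblast, and 7 were called higher in PGCs. Cer1 read 1 and 2.71 in PGCs and 36.6 and 1 in epiblast, above the detection level of 24.04 for amplified arrays on 1 epiblast array only. The 2 differences share no array, but PGCs at E9.5 and epiblast, an earlier tissue whose embryonic day is not given here, differ in age as well as in cell type.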

How the data were processed

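Values are the authors' deposited linear intensities, 1 per probe set and array, between 1 and 17519, from 24 arrays with 45101 probe sets. The software and normalization behind them were not given in the sources used here. Gene names came from the platform annotation: 34958 probe sets carry 1 symbol, 932 several (not used), and 9211 are not listed. For each of 18194 genes the probe set with the highest mean was kept.

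Intensities were raised to the 10th percentile (4.20) and put on the log2 scale as deposited, since array medians spanned 0.26 unamplified and 0.15 amplified. Genes were tested where 2 of 12 arrays exceeded the 40th percentile, 28.1 unamplified and 24.04 amplified. limma 3.58.1 in R 4.3.3 was fitted with an intensity trend to all 12 arrays of a kind (6 residual degrees of freedom), with Benjamini-Hochberg adjustment over all genes tested, and a call needed an adjusted p under 0.05 and a log2 difference of at least 1. The difference by amplification was fitted on all 24 arrays. The script was tested on simulated data. The number of arrays limits the precision.

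Genes named are the 15 largest called increases and decreases by fitted log2 difference, without overlap, with the same sign on amplified arrays and without provisional names, and members of 26 lists, described in order of the share called, 513 of 547 genes being on the array. Members and lists were chosen with earlier results of these data known.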

Additional observations from a re-analysis of the deposited data

Results flagged for a closer look

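The PGCLC minus EpiSC difference itself depended on amplification in 123 of 14554 genes, in a limma fit of all 24 arrays (adjusted p under 0.05 and a log2 change of at least 1). In 79 of them the difference was more positive on amplified arrays and in 44 more negative, and 83 of them were called on unamplified arrays. In 38 of the 123 a group was under the detection level on at least 1 kind of array. Leaving out 1 array moved the count to between 29 and 1892. The genes named in the report that passed this test are Bmp4, Casp4, Dppa5a, Fgf5, Ldha, Sox1 and Sycp3.

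Dppa5a was higher in PGCLCs on both kinds of array, and the amplified difference was smaller, a change of -1.20 ± 0.20 on the log2 scale. Fgf5 was lower in PGCLCs on both kinds of array, with a fitted change of 2.19. On amplified arrays it read 9.38 and 14.9 in PGCLCs and 557 and 398 in EpiSCs. Its PGCLC arrays were under the detection level on both kinds of array, so the size of the change is not measured. Ldha was lower in PGCLCs by -4.66 ± 0.22 on amplified arrays, where it read 506 and 327 in PGCLCs and 10011 and 10621 in EpiSCs, a change of -3.52 ± 0.28. For Sox1 the fitted change was 1.83, and here too PGCLC arrays were under that level on both kinds. Sycp3 was higher in PGCLCs on both kinds, with a fitted change of 2.26, and its EpiSC arrays were under that level on both. Neither change has a measured size. For Bmp4 the change was 2.19 ± 0.48, from -1.08 ± 0.35 to 1.11 ± 0.29 on amplified arrays, and for Casp4 it was 2.71, from -1.15 to 1.56. Among these 7 genes Bmp4 and Casp4 had opposite signs on the 2 kinds of array.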

How the results depend on the processing

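The count of genes differing on unamplified arrays, 3660, lay between 3084 and 3866 under every alternative run, 3584 to 3795 with 1 array left out and 3596 without the EpiLC groups, an alternative chosen after seeing the data. The amplified count of 2517 fell to 1186 when PGCLC and EpiSC arrays were fitted alone and lay between 1566 and 3558 with 1 array left out. The count of differences by amplification, 123, became 321 on raising low values to the 40th percentile, 0 in the limma fit of these arrays alone (898 at an unadjusted p under 0.05), 329 with the array code as a term and 29 to 1892 with 1 array left out. The cause was not tested.

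The share with the same sign on amplified arrays, 96.4%, was 94.6% without the filter, 97.4% at the 60th percentile and 91.9% to 96.4% with 1 array left out. The share for the embryo, 71.1%, was 69.6% and 73.1% under the same 2 filters. For these shares too the cause was not tested. With the replicate block the counts were 3669 unamplified, 3050 amplified and 355 by amplification. Whether shared numbers pair the samples is not settled: same-numbered PGCLC and EpiSC arrays share a code of unstated meaning, and the difference between replicates 1 and 2 correlated across genes between PGCLCs and EpiSCs at 0.15 unamplified and 0.41 amplified. For the genes named, 19 unamplified and 87 amplified values lost their call under an alternative, and 4 and 22 gained one, while 2088 and 1999 kept their side of the threshold and 19 and 38, called under neither setting, changed sign. No called value changed sign. Below the detection level (28.1 unamplified, 24.04 amplified) differences have no measured size, and 2 arrays per group limit precision.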
